A study of Rattus norvegicus with 24 samples.

Results

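The mitosis genes described here are 42 genes of cell division, chosen as the array probes whose gene name equals that of a member: kinases, spindle motors, kinetochore and spindle proteins, cyclins and the factors that time the separation of chromosomes. All 42 were found among the 25885 genes and unnamed transcripts on the array. They were measured in blood of Sprague-Dawley rats on 24 two-color SurePrint G3 Rat arrays (Agilent), with RNA of 1 rat on each array beside a common reference pooled from blood RNA of the same study. There were 6 groups of 4 arrays. C-G0 and LPS-G0 rats were fed the diet without beta-glucan, C-G1 and LPS-G1 rats the diet with oat beta-glucan of high molecular weight (G1), and C-G2 and LPS-G2 rats the diet with oat beta-glucan of low molecular weight (G2). The rats were male, 8 weeks old at the start and fed for 6 weeks. The LPS groups received lipopolysaccharide, a component of the bacterial cell wall, at 10 mg/kg into the tail vein, repeated after a week. The C groups received saline in the same way. The model is thus an injected endotoxin and not an infection. Each of the 3 slides carried 8 arrays with every group among them. LPS-G0 replicates 3 and 4 are named in their titles as LPS rats and in another label as controls, and were used as LPS-G0.

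Mitosis is driven by cyclin-dependent kinase 1 and its B-type cyclins. The chromosomes condense, are attached to the spindle at their kinetochores, and are pulled apart once the anaphase promoting complex, a ubiquitin ligase, marks securin and cyclin B for destruction. Most cells of the blood do not divide. Transcripts of mitosis in blood are known from activated lymphocytes, from plasmablasts and from young erythroid cells that have recently left the marrow. In whole blood, fewer cells of a type and less RNA per cell cannot be told apart.

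Each value is the log2 ratio of the Cy3 over the Cy5 signal of a gene's brightest probe. By the labels Cy3 is the dye of the rats and Cy5 that of the reference, while the study's methods state the reverse. Of 7074 probes that both dyes detected on every array, 95.3% had a larger spread within groups in Cy3, and all 9 mitosis genes in that set did. For these 9 the median SD of the log2 signal within groups was 0.50 for Cy3 against 0.25 for Cy5. The labels were followed, so a positive value is more transcript in the rat than in the reference.

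The probes of the genes with the largest changes, shown to make clear what was hybridized, are 60 bases long. The Ube2c probe lies on chromosome 3 between 155802226 and 155802557, a stretch of 332 bases that is longer than the probe, and the Tpx2 probe on chromosome 3 between 143232410 and 143232469, as the array design gives them. The genome build of these positions is not given in the sources used here.
Ube2c probe: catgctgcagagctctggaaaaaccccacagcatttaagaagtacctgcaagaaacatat
Tpx2 probe: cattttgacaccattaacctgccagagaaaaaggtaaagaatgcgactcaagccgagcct

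Many promoters of mitosis genes are known to carry the cell cycle homology region TTTGAA or TTCGAA and CCAAT boxes, bound by the DREAM and NF-Y complexes. RefSeq promoters (build GRCr8, from 250 bases before to 50 after the start) were at hand for 36 of the 42 genes, and both strands were searched. TTTGAA was present in 24 of them (66.7%, against 18.3% of all 33469 promoters), TTCGAA in 2 (5.56% against 1.69%) and CCAAT in 27 (75%, against 37.5%). A CCAAT box together with TTTGAA or TTCGAA was present in 20 (55.6% against 7.95%). A match is a description of the letters and not a site. Shown are the promoters of Cdca3 and Dlgap5, which changed with the G1 diet after LPS, and of Cdc20 and Mki67, which hold both kinds of motif, with the matches in capitals.
Cdca3 (chr4:159320953-159321252, + strand): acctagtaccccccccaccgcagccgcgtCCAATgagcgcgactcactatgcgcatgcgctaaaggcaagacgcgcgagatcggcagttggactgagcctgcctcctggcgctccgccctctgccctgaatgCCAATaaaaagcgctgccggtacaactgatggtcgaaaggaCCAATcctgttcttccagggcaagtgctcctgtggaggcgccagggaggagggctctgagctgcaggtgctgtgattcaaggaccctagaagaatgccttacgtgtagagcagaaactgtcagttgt
Dlgap5 (chr15:23144127-23144426, - strand): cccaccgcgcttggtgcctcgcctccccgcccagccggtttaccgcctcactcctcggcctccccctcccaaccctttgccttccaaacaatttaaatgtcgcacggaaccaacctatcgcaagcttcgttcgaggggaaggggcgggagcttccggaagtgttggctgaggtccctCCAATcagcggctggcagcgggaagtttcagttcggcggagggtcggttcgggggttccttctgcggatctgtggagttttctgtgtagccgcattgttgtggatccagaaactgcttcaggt
Cdc20 (chr5:137255750-137256049, - strand): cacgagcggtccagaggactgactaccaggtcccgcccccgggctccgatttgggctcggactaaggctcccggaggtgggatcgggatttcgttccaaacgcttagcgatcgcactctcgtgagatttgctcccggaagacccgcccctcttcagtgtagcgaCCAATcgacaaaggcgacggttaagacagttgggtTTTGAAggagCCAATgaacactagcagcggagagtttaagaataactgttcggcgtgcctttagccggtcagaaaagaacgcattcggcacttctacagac
Mki67 (chr1:199952544-199952843, - strand): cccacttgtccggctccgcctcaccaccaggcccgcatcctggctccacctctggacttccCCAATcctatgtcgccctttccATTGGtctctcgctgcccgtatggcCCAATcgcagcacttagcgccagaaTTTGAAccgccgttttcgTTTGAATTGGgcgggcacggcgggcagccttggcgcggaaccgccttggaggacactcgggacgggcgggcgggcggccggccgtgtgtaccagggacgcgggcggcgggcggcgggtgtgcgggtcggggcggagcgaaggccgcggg
Cdca3 held 3 CCAAT boxes, Dlgap5 1, Cdc20 2 and Mki67 4. TTTGAA was present once in the Cdc20 window and 2 times in that of Mki67, where one match shares 1 base with a CCAAT box read on the other strand, and it was in neither of the windows of Cdca3 and Dlgap5.

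Between 10 and 25 of the 42 mitosis genes were well above background in Cy3 on an array, with a median of 19. On all 24 arrays 9 genes were detected. These were Ube2c, the ubiquitin-conjugating enzyme of the anaphase promoting complex, Cdc20, its activator, Pttg1, the securin that holds back separase, the kinase Aurka, Birc5, the survivin subunit of the chromosomal passenger complex, the motor Kif18a, Dlgap5, a spindle protein, Mki67, the proliferation marker that coats mitotic chromosomes, and Cdca3, a trigger of mitotic entry. Another 9 were tested because they were above background on all arrays of at least 1 group: Cdk1, Cks2, Ndc80, Kif22, Kif23, Tpx2, Nusap1, Racgap1 and Top2a. Ndc80, a kinetochore protein, and Top2a, the topoisomerase that untangles sister chromatids, passed through the LPS-G0 arrays alone. Racgap1, a cytokinesis factor, passed through the LPS-G2 arrays alone. Cdk1 and Nusap1 passed through LPS-G0 and LPS-G2, and Cks2 through C-G0 and LPS-G1. Tpx2 passed through the groups of the G0 and G2 diets and through neither group of the G1 diet. Kif22 passed through all groups but C-G0 and C-G1, and Kif23 through all but C-G1. A lower value of one of these genes outside the groups that let it pass is therefore partly set by this filter.

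The other 24 genes were not tested. By the brightest probe, 12 of these were dim on all arrays: the cyclin Ccna2, the phosphatase Cdkn3, the kinases Nek2, Ttk and Bub1b, the kinetochore proteins Cenpe, Nuf2 and Spc25, the motor Kif11, Hmmr of the spindle, and Ect2 and Anln of cytokinesis. The second probe of Nek2 was above background on 1 array. The remaining 12 were above background on some arrays, most often the checkpoint kinase Bub1 (15 of 24 arrays), the polo-like kinase Plk1 (14), the motor Kif20a (9) and the cyclin Ccnb1 (7). Kif2c was detected on 5 arrays, Cdca8 on 4, Melk, Cenpf and Prc1 on 2 each, and Ccnb2, Aurkb and Pbk on 1 each. Ccnb1 was dim on all 4 LPS-G1 arrays and above background on 1 of 4 LPS-G0 arrays, too few for a fold. In the Cy5 channel of the reference, 23 of the 42 genes were well above background on all 24 arrays, among them Plk1, Bub1, Ccnb1, Kif20a and Prc1.

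**Figure D1:**
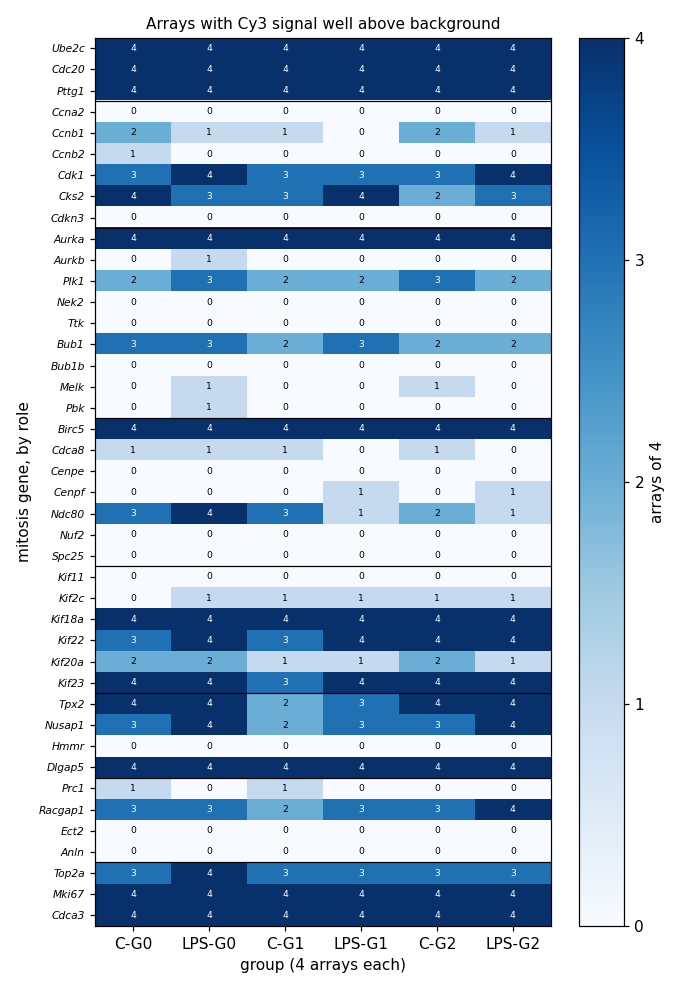
Number of arrays, of 4 in each group, on which the brightest probe of each of the 42 mitosis genes was well above background in Cy3 (darker is more). Lines separate roles. The 9 genes detected on all 24 arrays have 4 in every column, and 12 genes have 0 in every column.

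The mean log2 ratio of the 9 genes detected everywhere was highest in LPS-G0, where the 4 arrays were 0.57, 0.48, 0.32 and 0.37. In C-G0 the arrays were 0.53, -0.13, -0.07 and 0.23. In LPS-G1 they were -0.29, -0.98, -0.30 and -0.42. All 4 LPS-G1 arrays lay below all 8 arrays of the G0 diet. In C-G1 they were -0.11, -1.38, -0.65 and -0.03, and the lowest 2 lay far below the C-G0 arrays. In C-G2 the mean ran from -0.64 to 0.35 and in LPS-G2 from -0.32 to -0.05. The spread between rats differed by group, with an SD of 0.11 in LPS-G0 and 0.62 in C-G1.

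The genes moved together from array to array. Across the 24 arrays, Pearson's r of each of the 9 genes with the mean of the other 8 was between 0.53 (Pttg1) and 0.88 (Dlgap5). These points share their array, reference and normalization, and the r values are given as a description. C-G1 replicate 2, on which 10 of the 42 genes were detected, and LPS-G1 replicate 2, with 12, were the lowest arrays of their groups for the mean of the 9 genes. On C-G1 replicate 2 the Cy5 signal of the reference was the highest of the 24 arrays for Mki67 (903), Cdca3 (767), Dlgap5 (696) and Aurka (387). The low ratios of that array thus do not rest on Cy3 alone.

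**Figure D2:**
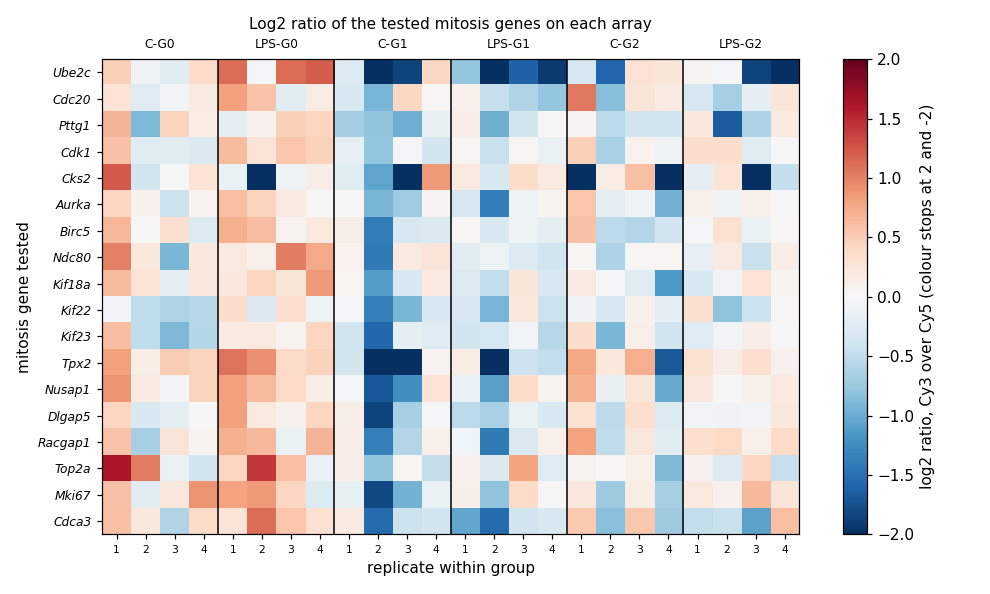
Log2 ratio (Cy3 over Cy5) of the 18 tested mitosis genes in rows, on each of the 24 arrays in columns by group and replicate. Red is above the reference and blue below, and the color scale stops at 2 and -2. LPS-G0 arrays are mostly red, and C-G1 replicate 2 and LPS-G1 replicate 2 are mostly blue.

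The first question was whether the G1 diet changed the mitosis genes in LPS-challenged rats. In LPS-G1, 4 of the 18 tested genes were lower than in LPS-G0 and 0 were higher at an adjusted p under 0.05 (limma, adjusted over the 10313 probes tested), where 8.39% of all probes were called lower. The 4 were Ube2c, Cdca3, Dlgap5 and Tpx2, a protein that nucleates spindle microtubules and activates Aurka. Of the 9 genes detected on all arrays, 3 were called and all 9 had a negative difference, with a median of -0.74 against 0.06 over all probes. Over the 18 tested genes the median was -0.66, with 17 negative. The genes were chosen with earlier results of these data known, so their counts beside the share of all probes are a description.

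Ube2c had log2 ratios of 1.12, -0.020, 1.11 and 1.21 in LPS-G0. In LPS-G1 they were -0.78, -2.25, -1.62 and -1.92. The groups did not overlap. The difference was -2.50 (SE 0.45), or 5.65-fold lower, with an adjusted p of 0.0289 from limma. Within the 3 slides the difference was -1.33, -3.05 and -3.13.

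Over the 24 arrays, Ube2c was between -0.78 and 1.21 on 16 and between -2.25 and -1.58 on 8, with a gap of 0.80 in a range of 3.46. Gaps as large were present in other tested genes, 1.19 for each of Tpx2, Dlgap5 and Cks2, 0.86 for Nusap1 and 0.85 for Mki67. The 8 low arrays were C-G1 replicates 2 and 3, LPS-G1 replicates 2, 3 and 4, C-G2 replicate 2, and LPS-G2 replicates 3 and 4. None of the 8 G0 arrays was among them. The Cy3 signal was 429 and 565 on the low C-G1 arrays and 1295 and 2680 on the other C-G1 arrays. The Cy5 signal of Ube2c in the reference averaged between 1594 and 1850 by group. On single arrays it ran from 1235 (C-G0 replicate 3) to 2425 (C-G1 replicate 2, a low array). The 3 other called genes did not separate the same 8 arrays. On LPS-G2 replicates 3 and 4, where Ube2c was -1.85 and -2.04, Dlgap5 was -0.05 and 0.21 and Tpx2 was 0.33 and 0.08.

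Tpx2 was 1.09, 0.92, 0.38 and 0.46 in LPS-G0 and 0.14, -3.10, -0.42 and -0.49 in LPS-G1. Tpx2 passed the filter through LPS-G0 and not through LPS-G1, which partly sets a lower value in LPS-G1. All LPS-G1 arrays were lower, but replicate 2 of LPS-G1 was not well above background. The difference was -1.68 (SE 0.47, adjusted p = 0.0374 from limma) and -0.97 without that array. Within slides it was -0.86, -2.14 and -0.95.

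Cdca3 was 0.26, 1.12, 0.55 and 0.31 in LPS-G0 and -1.03, -1.54, -0.37 and -0.30 in LPS-G1, again with no overlap. The difference was -1.37 (SE 0.35, adjusted p = 0.0290 from limma), and within slides it was -1.72, -1.50 and -0.61. Dlgap5 was 0.82, 0.19, 0.08 and 0.43 in LPS-G0 and -0.53, -0.64, -0.13 and -0.31 in LPS-G1. Its difference was smaller, -0.78 (SE 0.19, adjusted p = 0.0289 from limma), and within slides it was -1.04, -0.47 and -0.74. The exact two-sided permutation p was 0.0286 for each of the 4 genes, the smallest that 4 against 4 arrays can give.

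**Figure D3:**
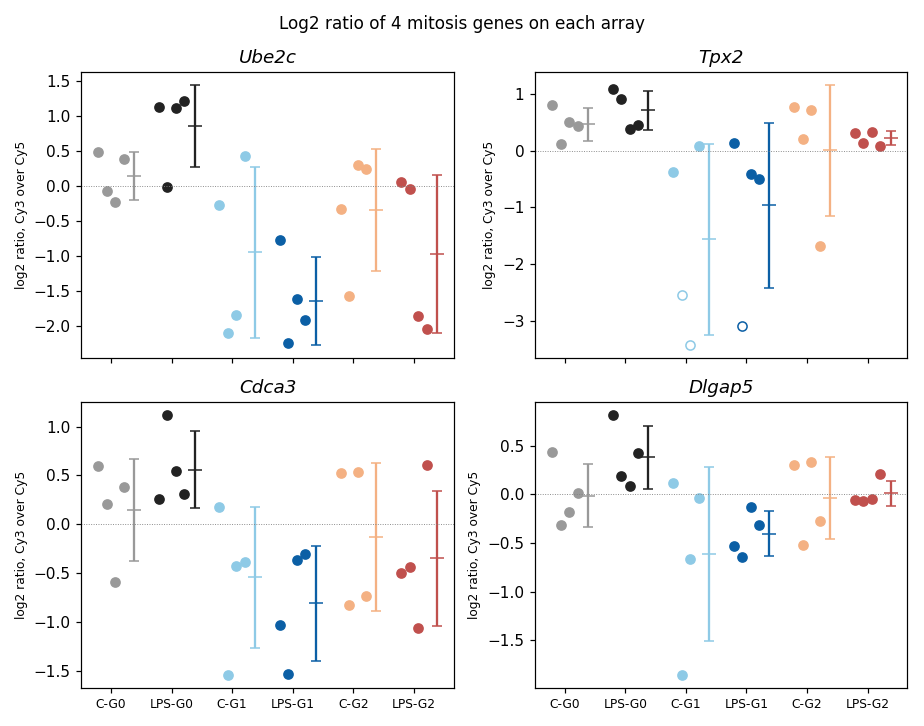
Log2 ratio (Cy3 over Cy5) of Ube2c, Tpx2, Cdca3 and Dlgap5 on each array, by group in replicate order. Bars are the mean and SD of 4 arrays, and open circles are arrays not well above background. All LPS-G1 points lie below all LPS-G0 points in each panel.

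The other tested genes did not pass. At an unadjusted p under 0.05, 13 of the 18 were lower in LPS-G1 and 0 higher (19.3% of probes lower). The arrays of LPS-G1 and LPS-G0 did not overlap for 8 of the 18, each lower in LPS-G1, against 14.6% of probes: the 4 above, Cdk1, Birc5, Ndc80 and Kif23. Both counts include Ndc80, which passed the filter through LPS-G0 alone and so had to be high there. Both also include Cdk1 and Tpx2, which passed through LPS-G0 and not through LPS-G1. The count at the unadjusted p includes Nusap1, which did the same, and Racgap1, which passed through LPS-G2 alone. The lower values of these genes in LPS-G1 are partly set by the filter. Of the 9 genes detected on all arrays, 7 were lower at the unadjusted p and 4 did not overlap (Ube2c, Birc5, Dlgap5 and Cdca3). Kif18a had a difference of -0.64 (adjusted p = 0.0600 from limma), Cdc20 -0.76 (0.0641), Cdk1 -0.60 (0.0728), Racgap1 -0.89 (0.0777), Aurka -0.74 (0.0801) and Birc5 -0.54 (0.0934). Nusap1, which bundles spindle microtubules, had -0.68, Ndc80 -0.77 and the motor Kif23 -0.55, with adjusted p between 0.115 and 0.157. Mki67, Kif22, Pttg1 and Top2a had differences between -0.53 and -0.45 with adjusted p of at least 0.251. Mki67 has 3 probes, whose differences were -0.53, -0.50 and -0.62.

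Cks2, a small partner of cyclin-dependent kinases, was the exception in sign. It was -0.13, -3.56, -0.09 and 0.13 in LPS-G0 and 0.20, -0.31, 0.37 and 0.20 in LPS-G1, a difference of 1.03 (SE 0.78, adjusted p = 0.393 from limma) that rests on LPS-G0 replicate 2. Cks2 was between -1.05 and 1.22 on the 19 arrays where it was above background and between -3.56 and -2.25 on the 5 where it was not.

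The 4 calls were not stable to the processing. With slide as a block only Ube2c passed, with 336 of 10313 probes. No gene passed by Tukey's test with its p-values adjusted over all probes, or with all 24 arrays in the fit. The same held without a filter on dim probes, with Cy3 alone, or when LPS-G0 replicates 3 and 4 were left out. Under each of these settings with no gene, at most 3 probes of the whole array passed. None of the 18 passed without LPS-G0 replicate 1 or 4 or without LPS-G1 replicate 2, 3 or 4, where at most 2 probes did, and 1 passed without LPS-G0 replicate 2, where 11 probes did. Array weights gave 13, with 2844 of 10313 probes called, and normexp with loess 8, with 1160. The differences of the 4 genes were negative in all settings, between -2.79 and -2.16 for Ube2c, -2.05 and -0.79 for Tpx2, -1.54 and -1.06 for Cdca3, and -0.91 and -0.57 for Dlgap5.

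The other genes of cell division and of DNA replication were taken from 7 further lists, also chosen with earlier results of these data known. Of 66 tested, 10 were lower in LPS-G1 than in LPS-G0 and 0 higher at an adjusted p under 0.05, against 8.39% of all probes called lower, and their median difference was -0.13. Of 6 tested genes of the spindle and of cytokinesis, 5 were lower. These were the motors Kif18b (-1.82, adjusted p = 0.0474 from limma) and Kifc1 (-1.65, 0.0289), and Ckap2l (-1.57), Spag5 (-1.22) and Iqgap3 (-0.84), each with an adjusted p of 0.0289. The kinetochore genes Cenpt (-0.87) and Cenpq (-0.84), the G1 cyclin Ccnd1 (-0.64), and Tyms (-1.35) and Tk1 (-0.95), which supply thymidine nucleotides, were also lower. Of 15 tested replication genes, 10 had a positive difference, with a median of 0.18. None of the 7 tested subunits and partners of the anaphase promoting complex, none of 11 condensin and cohesin genes and none of 7 cell cycle transcription factors passed. The 10 calls, too, were lost without any 1 of LPS-G0 replicates 1, 2 and 4 and LPS-G1 replicates 2, 3 and 4. A lower value outside the groups that let a gene pass the filter is partly set by it here as well. When only probes well above background on every array were tested, 4 of 39 genes were lower, against 791 of 7272 probes.

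For the G1 diet without LPS, C-G1 was compared with C-G0. None of the 18 genes passed at the adjusted p (0.028% of the 10708 probes did). At an unadjusted p under 0.05, 6 were lower and 0 higher (15.8% of probes lower). This comparison shares no array with the former. Each of the 9 genes detected everywhere had a negative difference, with a median of -0.65 against 0.02 over all probes, and so did all 18 tested. The range of the 9 was from -1.14 to -0.24. Without C-G1 replicate 2 the median of the 18 genes went from -0.62 to -0.31, and with array weights to -0.17, with 14 of 18 negative in both.

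Mki67 was 0.59, -0.22, 0.23 and 0.89 in C-G0 and -0.14, -1.81, -0.95 and -0.14 in C-G1. The groups overlapped by C-G0 replicate 2. The difference was -1.14 (95% interval -1.86 to -0.41, adjusted p = 0.107 from limma). The 3 probes of Mki67 gave -1.14, -1.23 and -1.28.

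Tpx2 was 0.82, 0.11, 0.51 and 0.44 in C-G0 and -0.37, -2.54, -3.43 and 0.08 in C-G1, the one tested mitosis gene with no overlap between the groups (3.97% of probes were lower with no overlap). Its difference was -2.03 (95% interval -3.41 to -0.66, adjusted p = 0.117 from limma), and the 2 lowest arrays were not well above background. Tpx2 passed the filter through C-G0 and not through C-G1, so this difference is partly set by the filter. Nusap1 was 0.90, 0.17, -0.050 and 0.45 in C-G0 and -0.03, -1.69, -1.23 and 0.27 in C-G1, a difference of -1.04 (adjusted p = 0.131 from limma). The other 3 were Top2a (-0.82), Pttg1 (-0.74) and Birc5 (-0.65). Within the slides, the median difference of the 18 genes was -0.38 on slide 1, -0.81 on slide 2, which held C-G1 replicates 2 and 3, and -0.04 on slide 3.

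**Figure D4:**
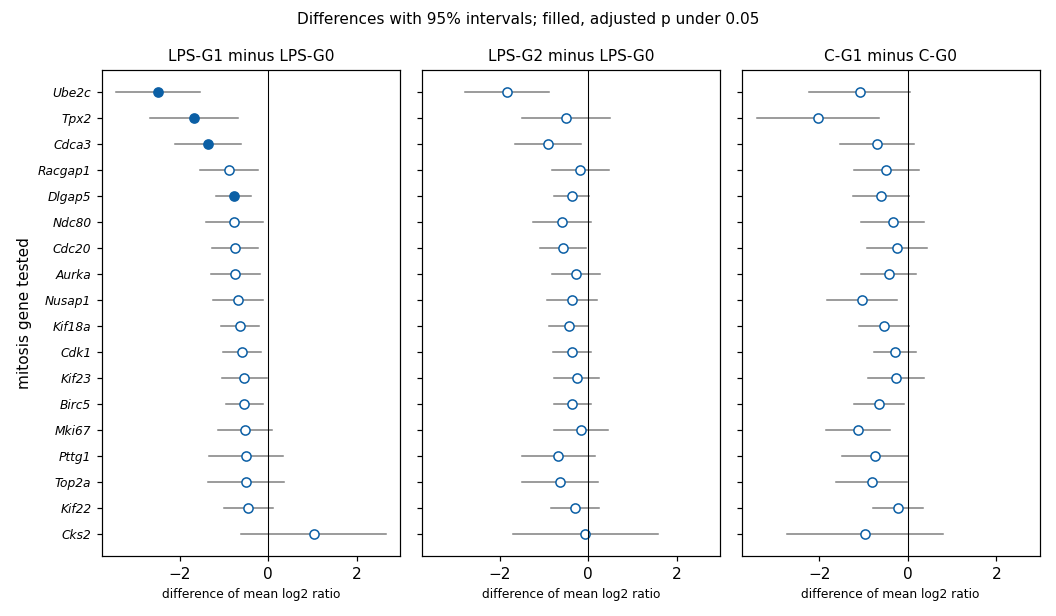
Difference of mean log2 ratio with its 95% interval for the 18 tested mitosis genes, in LPS-G1 against LPS-G0, LPS-G2 against LPS-G0 and C-G1 against C-G0. Filled points have an adjusted p under 0.05 by limma. The 4 filled points are in the first panel, 17 of 18 points there are negative, and all 18 are negative in the others.

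The G2 diet was compared with the G0 diet in the same way. In LPS-G2, 0 genes passed against LPS-G0 (0% of probes did), and at an unadjusted p under 0.05, 4 were lower and 0 higher (5.61% of probes lower). All 9 genes detected everywhere had a negative difference, with a median of -0.44 against -0.02 over all probes. The comparison shares the LPS-G0 arrays with that of the G1 diet. Ube2c was 0.05, -0.04, -1.85 and -2.04 in LPS-G2, so that 2 arrays lay near the lower edge of LPS-G0 and 2 far below it. The difference was -1.83 (95% interval -2.78 to -0.88), with an adjusted p of 0.597 from limma. Cdca3 was -0.50, -0.44, -1.06 and 0.60 in LPS-G2, a difference of -0.91 (adjusted p = 0.597 from limma), with 1 array inside the range of LPS-G0. Cdc20 was 0.82, 0.57, -0.25 and 0.15 in LPS-G0 and -0.34, -0.66, -0.19 and 0.25 in LPS-G2, with overlap, and its difference was -0.56 with the same adjusted p from limma.

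C-G2 against C-G0 gave 0 genes at the adjusted p (0.028% of probes) and 0 at the unadjusted p (13.3%), with 8 of the 9 genes negative and a median of -0.39. Over the 18 genes the median was -0.33 with 14 negative, and it was -0.09 with 10 negative without C-G2 replicate 4, -0.14 without C-G2 replicate 2 and -0.16 without C-G0 replicate 1. On slide 1 it was 0.19 with 5 of 18 negative. The smallest unadjusted p belonged to Kif18a, which was 0.63, 0.28, -0.18 and 0.23 in C-G0 and 0.17, -0.03, -0.24 and -1.15 in C-G2. Its difference was -0.55 (95% interval -1.13 to 0.02). Top2a (-0.72) and Mki67 (-0.63) followed. Top2a was 1.64, 1.04, -0.13 and -0.38 in C-G0 and 0.07, 0.03, 0.10 and -0.90 in C-G2, so that the groups overlapped.

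LPS-G1 and LPS-G2 were compared directly to see whether the molecular weight of the beta-glucan mattered after LPS. None of the 18 genes passed (0% of probes did), and at an unadjusted p under 0.05, 3 were lower in LPS-G1 (4.52% of probes). Of the 3, Racgap1 had passed the filter through LPS-G2 alone, the group where it was high. Tpx2 had passed it through LPS-G2 and other groups, but not through LPS-G1. Tpx2 was 0.31, 0.14, 0.33 and 0.08 in LPS-G2, against -3.10 to 0.14 in LPS-G1. The difference was -1.18 (95% interval -2.17 to -0.19, adjusted p = 0.679 from limma). Racgap1 was 0.33, 0.40, 0.09 and 0.39 in LPS-G2 and -0.06, -1.40, -0.28 and 0.10 in LPS-G1, a difference of -0.71 with the same adjusted p from limma. Dlgap5 was -0.05, -0.07, -0.05 and 0.21 in LPS-G2, all above the LPS-G1 arrays, and its difference was -0.41 (95% interval -0.82 to -0.013). For Ube2c the interval was wide, from -1.62 to 0.28, around -0.67.

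LPS on the G0 diet moved no mitosis gene past the adjusted test, with 0.0097% of probes called, and at an unadjusted p under 0.05, 2 of the 18 were higher in LPS-G0 than in C-G0 and 0 lower (10.7% of probes higher). The 9 genes detected everywhere all had a positive difference, with a median of 0.26 against 0.03 over all probes. Cdk1, the kinase that drives entry into mitosis, was 0.63, 0.25, 0.56 and 0.46 in LPS-G0 and 0.58, -0.23, -0.24 and -0.29 in C-G0. The C-G0 arrays were low but for replicate 1. Cdk1 passed the filter through LPS-G0 and LPS-G2 and not through C-G0, so a lower value in C-G0 is partly set by the filter. The difference was 0.52 (95% interval 0.09 to 0.95, adjusted p = 0.258 from limma). Kif23 was 0.17, 0.20, 0.08 and 0.43 in LPS-G0 and 0.61, -0.52, -0.89 and -0.58 in C-G0, a difference of 0.56 (adjusted p = 0.288 from limma), again with C-G0 replicate 1 apart. Dlgap5 differed by 0.39 (adjusted p = 0.340 from limma). Without C-G0 replicate 1, Cdk1 and Kif23 passed as higher, 2 of 18 genes. Of all 10313 probes, 846 then passed as higher, a share not far from that of the mitosis genes, and 294 as lower.

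On the G1 and G2 diets LPS gave 0 genes at the adjusted p (0.00934% and 0% of probes) and 0 at the unadjusted p (2.81% and 1.09%). The medians of the 9 genes were 0.09 and 0.05, and those of the 18 were 0.24 and 0.15. The sign of the latter was not stable. With G1 the median was -0.11 with array weights and -0.015 without C-G1 replicate 2, and with G2 it was -0.09 without C-G2 replicate 4 and 0.0044 without C-G2 replicate 2. Mki67 had the smallest unadjusted p in both. In LPS-G1 it ran from -0.81 to 0.38, and its mean was 0.68 above that of C-G1 (95% interval -0.04 to 1.41). In LPS-G2 it was 0.19, 0.09, 0.65 and 0.25, and in C-G2 it was 0.21, -0.72, 0.15 and -0.67, a difference of 0.55. Ube2c had differences of -0.69 with the G1 and -0.63 with the G2 diet, with both groups spread over more than their difference. Nusap1 was -0.12, -1.08, 0.36 and 0.07 in LPS-G1, 0.48 above C-G1 on average. Cdc20 was 1.05, -0.85, 0.24 and 0.17 in C-G2, and its difference in LPS-G2 was -0.39. The LPS effect on the G1 diet minus that on the G0 diet was tested as an interaction. It gave 0 genes at either p (0% of probes at the adjusted and 3.01% at the unadjusted p), and so did that of the G2 diet (0% and 5.57%). For Ube2c the interaction was -1.41 (95% interval -3.01 to 0.20) with G1 and -1.34 with G2. Cks2 and Mki67 had 2.00 and 0.61 with G1, and Cdc20 and Kif22 had -0.67 and -0.61 with G2. The motor Kif22 was 0.35, -0.29, 0.34 and -0.10 in LPS-G0 and -0.06, -0.52, -0.59 and -0.56 in C-G0. For Tpx2 the interval with G1 ran from -1.59 to 2.30.

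The nearest genes in pattern were sought among all tested genes outside the cell cycle lists, by Pearson's r over the 24 arrays with the mean of the 9 mitosis genes. The first were Ca1 (now Car1, r = 0.93), the carbonic anhydrase of red cells, March8 (now Marchf8, 0.92), a ubiquitin ligase, Abhd4 (0.92), the oxidase Duox1 (0.91), Clec14a (0.91), Rab3il1 (0.91) and Dok7 (0.90). An unnamed Ensembl transcript, LOC683498 and a probe without a gene name complete the 10, with r of 0.91 each. In LPS-G1 against LPS-G0 the 10 differed by between -1.17 and -0.72. These arrays were among those used to choose the 10, so the differences are a description and no test.

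Markers of blood cell types, from lists also chosen with earlier results of these data known, were set beside the mitosis genes. Of 17 erythroid genes, 15 were tested and 0 of the 16 on the array were dim on all arrays. Their mean log2 ratio had an r of 0.86 with the mean of the 9 mitosis genes over the 24 arrays, 0.90 after each group's mean was subtracted and 0.75 without the 2 arrays farthest from the median. The single genes did not all follow. Their r was highest for Klf1 (0.885), Epb42 (0.863) and Hemgn (0.855). It was lowest for Hbb (-0.24), Tfrc (-0.03), Bpgm (0.08), Rhag (0.16), Fech (0.36) and Alas2 (0.38). The summed Cy3 signal of the list was between 19.45 and 20.01 on the log2 scale in LPS-G0 and between 19.38 and 19.67 in LPS-G1. The erythroid mean ratio ran from 0.10 to 0.26 in LPS-G0, from -0.57 to 0.05 in LPS-G1, from -0.14 to 0.50 in C-G0 and from -1.36 to -0.16 in C-G1. In C-G2 it was between -0.39 and 0.01 and in LPS-G2 between -0.08 and 0.13. C-G1 replicate 2 and LPS-G1 replicate 2 were the lowest of their groups here too. Of the 15 genes, 3 were lower in LPS-G1 than in LPS-G0 at an adjusted p under 0.05 by limma (8.39% of all probes were): Hemgn (-1.03) and Klf1 (-0.81), nuclear factors of the red cell lineage, and Epb42 (-0.93), of the red cell membrane skeleton. Rhag (0.58), the globin Hbb (0.16), Alas2 (0.02) of heme synthesis and the transferrin receptor Tfrc (-0.20) did not pass. The part of the erythroid genes in the values of the mitosis genes was not tested.

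**Figure D5:**
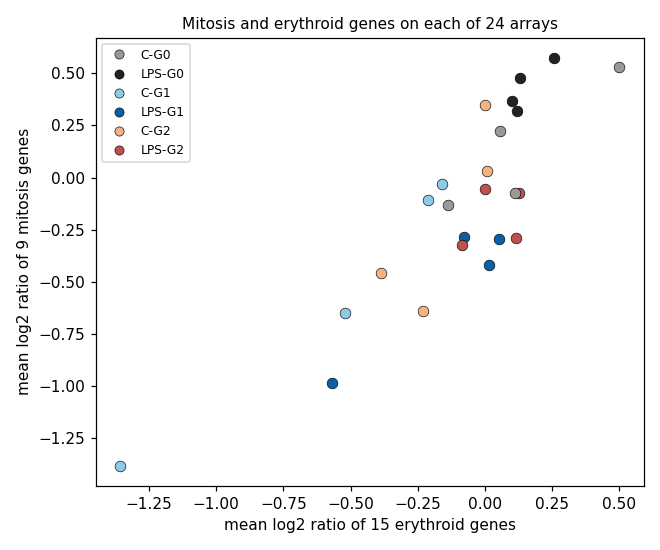
Mean log2 ratio of the 9 mitosis genes detected on all arrays (vertical) against that of 15 erythroid genes (horizontal), 1 point for each of the 24 arrays, colored by group. The points rise together, and the lowest on both axes is C-G1 replicate 2.

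The 9 other marker lists ran less closely with the mitosis genes over the arrays. Platelet genes had an r of 0.57, which fell to 0.18 without the 2 farthest arrays, and the lists of T cells, cytotoxic T and NK cells, B cells, plasmablasts, early B cells and progenitors, monocytes, and immature and mature neutrophils had r between -0.55 and -0.03. In LPS-G1 against LPS-G0, 1 of 8 tested cytotoxic genes, the receptor Klrk1 (-0.48), was lower, as were 8.39% of all probes. Of the early B cell genes, 1 of 2 tested, the surrogate light chain Igll1 (1.31), was higher, as were 56 of all 10313 probes. From the other 7 lists 0 genes passed. The plasmablast markers Sdc1, Irf4 and Tnfrsf17 were dim on all 24 arrays, as were Dntt, Rag1 and Rag2 of early lymphoid cells. The number of probes well above background, a measure of signal that ran from 7786 to 15385 per array, had an r of 0.09 with the mean of the mitosis genes.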

How the data were processed

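Blood RNA of 24 rats was hybridized on two-color arrays, 1 rat per array, against a reference pooled from blood RNA. The files deposited by the authors hold Agilent Feature Extraction output (version 10.10.1.1 in the file headers, 10.7.3.1 in the submitters' notes), in which the authors' processing subtracted background and applied Lowess dye normalization. The deposited processed signals are intensity values, and the deposited log ratio is the log10 of Cy5 over Cy3, which was turned to log2 of Cy3 over Cy5. The deposited series table held the same log ratios and was not used separately.

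Control spots and outlier spots (between 679 and 1133 per array) were left out and spots of a probe averaged. The brightest probe of a gene by mean Cy3 signal stood for it. Probes that at least 1 group showed well above background in Cy3 on each of its arrays were tested, and a probe counts as well above background when at least 0.5 of its spots are. limma 3.58.1 in R 4.3.3 was fitted to the 16 arrays of the 3 LPS groups and C-G0 (10313 probes) and, for comparisons with C-G1 or C-G2, to all 24 (10708 probes), with Benjamini-Hochberg adjustment over all probes tested and a threshold of 0.05. The number of arrays limits the precision. Groups came from the sample titles. One rat gave each array, so p-values measure the spread between these rats. The script was tested on simulated data.

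The members, the lists of other cell cycle genes and the marker lists were chosen with earlier results of these data known. Per-array values are given for the genes past the test in LPS-G1 against LPS-G0 and for the 3 genes of smallest unadjusted p in each other comparison. Other cell cycle genes are named where they passed in LPS-G1 against LPS-G0, up to 10. The alternatives were a slide block, a replicate block, array weights, a variance trend, other filters on dim probes, and normexp (offset 50) with loess. Others were Cy3 alone, centering, other sets of arrays, the mean over probes, Tukey's test, and leaving out each array in turn. Tukey's test used the residual variance of a one-way analysis of variance, and its p-values were adjusted over all probes in each comparison. The analysis of variance itself did not select probes and no fold threshold was set, so this is not the full procedure of the study's methods.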

Additional observations from a re-analysis of the deposited data

Results flagged for a closer look

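In 10 of the 108 sets of 4 arrays examined (18 tested mitosis genes in 6 groups), 1 array stood apart from the other 3 beyond the critical value of Dixon's test. Chance does so in about 1 of 20 sets. The high values were Cdk1 on C-G0 replicate 1 with a log2 ratio of 0.58, Kif22 on the same array with -0.062, and Dlgap5 on LPS-G2 replicate 4 with 0.21. The low values were Kif23 on C-G1 replicate 2 with -1.57 and Ndc80 on the same array with -1.41, Ndc80 on C-G2 replicate 2 with -0.62, Top2a on C-G2 replicate 4 with -0.90, Racgap1 on LPS-G0 replicate 3 with -0.13, Cks2 on LPS-G0 replicate 2 with -3.56 and Ube2c on the same array with -0.020. Kif23 and Ndc80 on C-G1 replicate 2, Ndc80 on C-G2 replicate 2, Cks2 on LPS-G0 replicate 2 and Racgap1 on LPS-G0 replicate 3 were not well above background in Cy3. For Ube2c the low array is nearest to the LPS-G1 range, and without it Ube2c still passed the test in LPS-G1 against LPS-G0.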

How the results depend on the processing

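In LPS-G1 against LPS-G0, where 4 mitosis genes and 10 other cell cycle genes passed (the alternatives for the latter were chosen after seeing the data), a slide block left 1 and 4 (336 of 10313 probes). Array weights gave 13 and 19 (2844 probes). No filter on dim probes, Cy3 alone and all 24 arrays in the fit each gave 0 and 0. So did leaving out the 2 LPS-G0 arrays whose labels disagree, and Tukey's test with adjusted p-values. Each of these settings called at most 3 probes of the whole array. At an unadjusted Tukey p under 0.05 there were 5 mitosis genes, beside 1328 of 10293 probes in either direction. Probes well above background on every array gave 4 of 39 other cell cycle genes (831 of 7272 probes), and normexp with loess gave 8 mitosis genes (1160 of 10313 probes). Leaving out 1 array at a time gave 0 to 6 mitosis genes and 0 to 11 other cell cycle genes, with 0 to 1264 of all 10313 probes called. The median difference of the mitosis genes was negative in all 22 settings, from -0.87 to -0.42. No named difference changed sign in any setting. In LPS-G0 against C-G0, array weights gave 3 genes (Cdk1, Kif23 and Dlgap5, with 1142 of 10313 probes), and leaving out 1 array gave 0 to 2 (0 to 1140 probes). In C-G1 against C-G0, the replicate block gave 1 gene, Mki67, with 600 of 10708 probes. In the other comparisons, all alternatives run gave 0 genes, as reported. The cause of these differences was not tested.

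Same-numbered arrays deviated together with a correlation over 0.1 in 0 to 3 of 4 pairs of a comparison, so the numbers were not taken to pair the rats. In C-G2 against C-G0 and in LPS-G1 against C-G1 it was 3 of 4 pairs, with a mean correlation of 0.33 and 0.22. In each of these, 6 of 8 arrays correlated best with their own number. LPS-G2 against C-G2 also had 3 of 4 pairs, with a mean correlation of 0.17, and there 5 of 8 arrays did. All replicates 1 lay on slide 1 and all replicates 4 on slide 3. In LPS-G1 against LPS-G0, 1 of 8 arrays correlated best with its own number. The replicate block there gave 6 mitosis genes and 10 other cell cycle genes, with 1269 of 10313 probes called. Signal over background limits the account to 18 of 42 genes.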
